A study of Mus musculus with 12 samples.

Results

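The genes described here are 10 effector genes of natural killer (NK) cells and cytotoxic T cells, taken by their symbols from a table of 23234 genes and short RNAs. They comprise 5 granule proteins (Prf1, Gzma, Gzmb, Ctsw and Nkg7), the chemokines Ccl5 and Xcl1, and 3 receptor components (Klrd1, Tyrobp and Fcer1g). Expression was measured by RNA-seq in 12 libraries of sorted thymocytes of C57BL/6 mice. The sorted cells were CD24hiTCRβlo CD4+CD8+ (double-positive) thymocytes, which have not yet undergone positive selection. 5 libraries came from wild-type newborn mice and 3 from newborn Bcl11bm/m mice, which carry on both chromosomes a frameshift allele of Bcl11b whose truncated protein has lost its last zinc finger. The other 4 libraries (cKO) came from mice of the genotype Bcl11bfl/fl:Cd4-Cre, whose loxP-flanked Bcl11b is deleted by a Cre recombinase driven by Cd4 regulatory sequences, which act from about the double-positive stage. The labels leave the age of the cKO mice out, so genotype and age cannot be told apart in any comparison with them. Expression is given as FPKM, the number of fragments scaled by transcript length and by all mapped fragments, which is already per length and so can be set side by side between genes.

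Cytotoxic lymphocytes store perforin and granzymes in granules and release them onto a target cell, where perforin opens the membrane and granzymes, which are serine proteases, enter and start cell death. NK cells trigger this release through receptors that lack signalling tails of their own and depend on small membrane adaptors with tyrosine activation motifs, among them the products of Tyrobp (DAP12) and Fcer1g (the common Fc receptor gamma chain). Most thymocytes at the double-positive stage are not known for these products, and Bcl11b is a zinc finger factor known for holding developing T cells to the T lineage and away from NK-like fates.

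The libraries were first compared with their labels. The sample titles and the design text assign the genotypes used here, whereas the free-text descriptions name Bcl11bm/m for all wild-type and Bcl11bm/m samples alike and Bcl11b+/+ for the cKO samples. Every direction given here rests on the titles. The extraction text of the labels speaks of sorted DN NKT cells (CD4-CD8- natural killer T cells, which themselves use several of the genes described here). It also names another library kit than the study's methods. The sample descriptions give pre-selection double-positive thymocytes, and the paper's results speak of RNA-seq in pre-selection thymocytes. Bcl11b itself had 132 to 292 FPKM in wild-type, 429.9 to 482 FPKM in Bcl11bm/m and 115 to 139.9 FPKM in cKO libraries, values over the whole gene that cannot show a frameshift or the loss of an exon. All 14 markers of pre-selection double-positive thymocytes (Rag1, Rag2, Dntt, Ptcra, Cd4, Cd8a and others) were detected in every group. Their summed level was 8434 to 10880 FPKM in wild-type, 6635 to 7603 in Bcl11bm/m and 7421 to 9659 in cKO libraries, and 7 of the 14 were called lower in Bcl11bm/m and 2 in cKO thymocytes, where 17.3% and 14.5% of all features were called in either direction, so the count in cKO is near the background. Depth, estimated from the steps between low FPKM values, was 3950000 to 6810000 fragments in wild-type, 2720000 to 4140000 in Bcl11bm/m and 10700000 to 45100000 in cKO libraries, so low genes were measured most precisely in the last group. Nothing in the labels says that replicates came from separate animals, so p-values measure the spread between these libraries. In bulk RNA a higher value may come from more cells with the transcript or from more transcript per cell, and these cannot be told apart.

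Members were compared as log2(FPKM + 1) with limma, in a fit over the 10780 features whose mean over all libraries reached 1 FPKM, and were called at an adjusted p under 0.05 over all of these features. Of the 10 members 6 passed that filter (Prf1, Gzma, Ctsw, Ccl5, Tyrobp and Fcer1g), and in 5 of them the wild-type mean alone reached 1 FPKM. Ccl5 passed only through Bcl11bm/m replicate 1. The other 4 members (Gzmb, Nkg7, Klrd1 and Xcl1) stayed under it and have no call.

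In Bcl11bm/m thymocytes 4 of the 6 members tested were called higher than in wild-type, namely Gzma, Tyrobp, Fcer1g and Prf1. Over all features 17.3% were called in this comparison and 9.92% were called higher. For 5 of the 6 members the Bcl11bm/m libraries lay entirely above the wild-type libraries, beside 25.4% of all features whose groups did not overlap in either direction; one of the 5 is Ccl5, and without it the count was 4 of 5. In cKO thymocytes 2 of the 6 were called, Gzma higher and Prf1 lower, where 14.5% of all features were called and 4.65% were called higher. Only Prf1 showed groups without overlap there (16.1% of all features). Between the mutants, Prf1, Tyrobp and Ccl5 were called higher in Bcl11bm/m thymocytes, against 10.2% of all features called and 7.63% called higher, and 4 of the 6 had no overlap (26.7% of all features). Without Ccl5 these counts were 2 called and 3 without overlap, of 5. The median difference of the 6 members was 2.19, 0.26 and 1.50 on the log2(FPKM + 1) scale in these 3 comparisons, beside -0.02, -0.09 and 0.09 over all features, and 2.71, 0.66 and 1.34 without Ccl5. The comparisons with wild-type share the same 5 wild-type libraries and are given side by side.

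**Figure D1:**
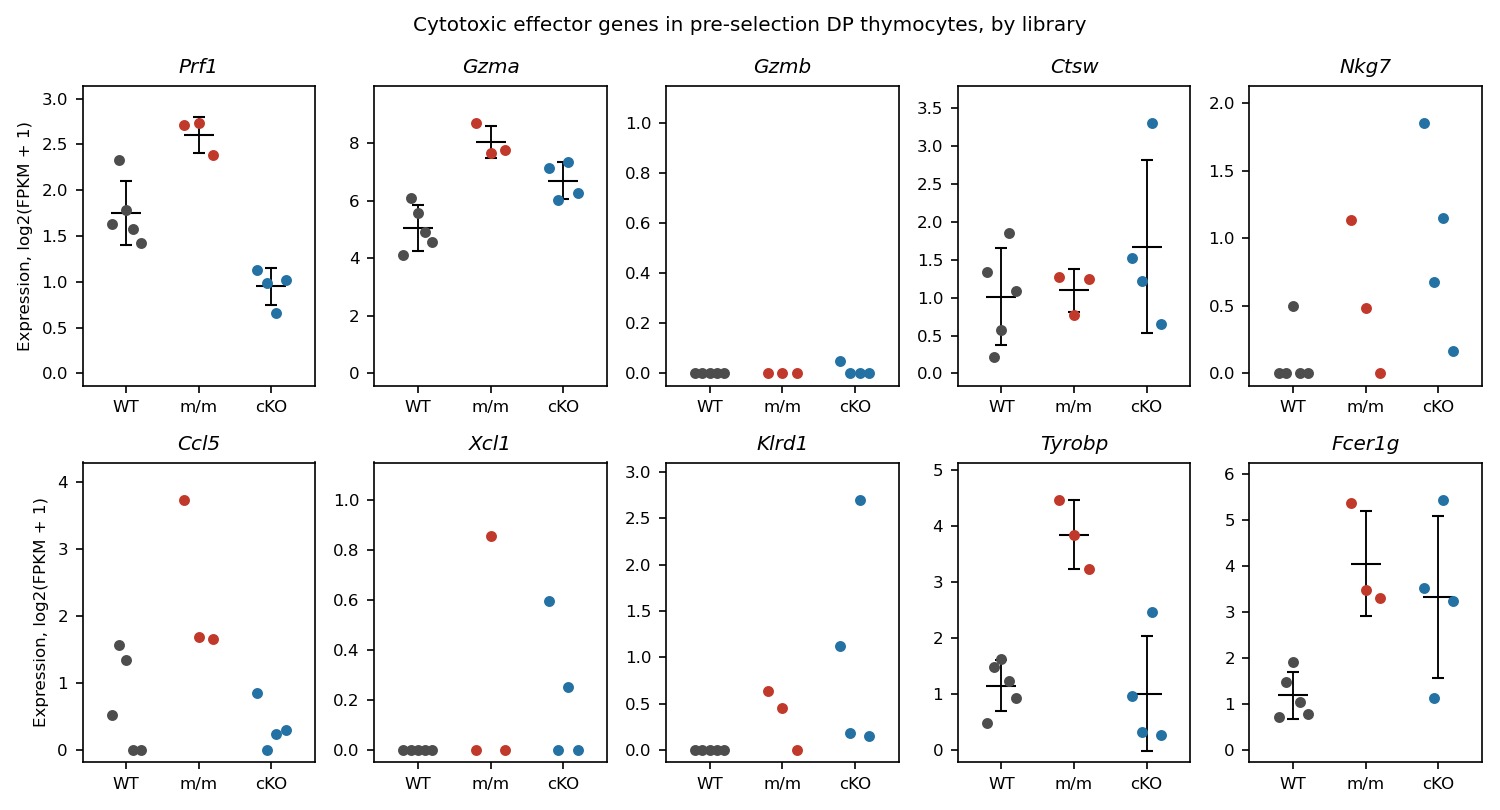
Expression of the 10 members as log2(FPKM + 1) in each library (points) of wild-type (WT, n = 5), Bcl11bm/m (m/m, n = 3) and cKO (n = 4) pre-selection thymocytes, each panel on its own scale; horizontal and vertical bars are the mean and SD, drawn for genes with a value above 0 in every library. Prf1 separates the 3 groups, with cKO lowest and m/m highest, whereas Tyrobp is high in m/m and Fcer1g is high in m/m and in 3 of the 4 cKO libraries.

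Gzma encodes granzyme A, a trypsin-like protease of cytotoxic granules, and lies on chromosome 13 from 113884033 to 113891187 (NCBIM37). It was by far the most abundant member. Replicate by replicate, it had 16.4, 67.1, 46.1, 29.3 and 22.7 FPKM in wild-type, 409, 202 and 217 FPKM in Bcl11bm/m and 139, 64.3, 160 and 76.4 FPKM in cKO libraries. Every Bcl11bm/m library was above every wild-type library, and of the cKO libraries only replicate 2 lay below the highest wild-type library. The mean was 36.3 ± 20.5 FPKM (SD, n = 5) in wild-type, 276 ± 115 FPKM (SD, n = 3) for Bcl11bm/m and 110.1 ± 46.9 FPKM (SD, n = 4) for cKO thymocytes. Gzma rose by 2.99 on the log2(FPKM + 1) scale in Bcl11bm/m relative to wild-type (95% interval 1.96 to 4.02, adjusted p = 0.00309 by limma). It also rose in cKO relative to wild-type, by 1.64 (95% interval 0.72 to 2.56, adjusted p = 0.0276 by limma). The mutants were ordered with Bcl11bm/m higher by 1.34 (95% interval 0.43 to 2.25), a difference that missed the threshold (adjusted p = 0.0704 by limma) although the libraries did not overlap. It passed with library quality weights (1.11, adjusted p = 0.0459 by limma) and without short RNA features (0.0477). The call in Bcl11bm/m held with each library left out in turn. In cKO it was lost without wild-type replicate 4 (difference 1.61, adjusted p = 0.057 by limma) or 5 (1.52, 0.0691) and without cKO replicate 1 (1.50, 0.0917), 3 (1.43, 0.085) or 4 (1.78, 0.0517), and also when no low values were filtered out (adjusted p = 0.0619).

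Prf1 encodes perforin, the pore-forming protein of the same granules, on chromosome 10 from 60760584 to 60767011. The libraries in order had 2.11, 4.02, 2.44, 1.98 and 1.69 FPKM (wild-type), 5.53, 5.63 and 4.21 FPKM (Bcl11bm/m) and 1.18, 0.983, 0.584 and 1.03 FPKM (cKO). The 3 groups did not overlap, with cKO lowest and Bcl11bm/m highest, although the lowest Bcl11bm/m library was close to the highest wild-type library. Prf1 rose by 0.86 in Bcl11bm/m relative to wild-type (95% interval 0.37 to 1.34, adjusted p = 0.0264 by limma) and fell by 0.80 in cKO relative to wild-type (95% interval -1.24 to -0.36, adjusted p = 0.0257 by limma). The direct comparison gave the largest gap, with Bcl11bm/m higher by 1.65 (95% interval 1.28 to 2.03, adjusted p = 0.00232 by limma), and held with each library left out. The rise over wild-type was lost without wild-type replicate 3 (difference 0.86, adjusted p = 0.0511 by limma), 4 (0.81, 0.0537) or 5 (0.78, 0.0559) and without Bcl11bm/m replicate 1 (0.81, 0.0888) or 2 (0.80, 0.105), and with no filter (0.0517) or library quality weights (0.63, 0.0537). The fall in cKO was lost without wild-type replicate 3 (-0.79, adjusted p = 0.0518 by limma) and without cKO replicate 1 (-0.86, 0.0504), 3 (-0.70, 0.0741) or 4 (-0.82, 0.0591), and it was -1.26 with a pseudocount (the constant added to FPKM before the logarithm) of 0.1. Gzma and Prf1, whose products act together, thus moved in the same direction in Bcl11bm/m and in opposite directions in cKO thymocytes. Within the latter group the library with the most Gzma, replicate 3, had the least Prf1.

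The bases before the transcription start of these granule genes and of Fcer1g are shown because their transcripts differed in level and direction. Gzmb was included as a granule gene listed at 0 in every wild-type and Bcl11bm/m library. Of the 10 members 6 were matched in the RefSeq promoter table (Prf1, Gzma, Gzmb, Nkg7, Fcer1g and Xcl1), and Tyrobp, Ccl5, Klrd1 and Ctsw were not. Each sequence is the 200 bases before the annotated start on GRCm38.p6, 5′ to 3′ on the gene's strand, namely chr10:61297636-61297835 (plus strand) for Prf1, chr13:113100982-113101181 (minus strand) for Gzma, chr14:56262335-56262534 (minus strand) for Gzmb and chr1:171234350-171234549 (minus strand) for Fcer1g. Capitals mark the letters TGTGGT or their reverse complement ACCACA, which are a core of Runx recognition sites, and AGGTGT or its reverse complement ACACCT, which are a core of T-box sites; the Runx variant TGCGGT was also searched on both strands, and matches to the 3 motifs do not overlap here.
Prf1: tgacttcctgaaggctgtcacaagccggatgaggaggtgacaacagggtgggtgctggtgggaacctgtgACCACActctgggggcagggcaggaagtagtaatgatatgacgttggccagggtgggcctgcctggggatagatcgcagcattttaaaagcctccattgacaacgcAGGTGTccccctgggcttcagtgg
Gzma: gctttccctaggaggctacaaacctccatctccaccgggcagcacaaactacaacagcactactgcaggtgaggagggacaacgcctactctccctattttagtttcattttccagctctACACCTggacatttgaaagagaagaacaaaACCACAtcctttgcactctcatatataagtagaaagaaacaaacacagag
Gzmb: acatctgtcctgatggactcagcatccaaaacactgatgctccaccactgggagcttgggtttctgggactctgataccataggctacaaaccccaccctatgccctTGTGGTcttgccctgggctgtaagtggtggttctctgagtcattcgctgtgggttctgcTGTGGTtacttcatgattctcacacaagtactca
Fcer1g: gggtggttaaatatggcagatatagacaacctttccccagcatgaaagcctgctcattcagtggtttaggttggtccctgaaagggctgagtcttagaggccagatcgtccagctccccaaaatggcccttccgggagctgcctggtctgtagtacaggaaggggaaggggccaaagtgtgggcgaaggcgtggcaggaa

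The Prf1 sequence held TGTGGT at 130 and AGGTGT at 24 bases before the start, each counted to the match's end that lies farther from it. In Gzma the same motifs stood at 50 and 80 bases before the start. Gzmb held TGTGGT at 93 and at 34 bases, and Fcer1g held none of the searched letters. Of the matched promoters not shown, Nkg7 held TGTGGT at 83 and AGGTGT at 14 bases, and Xcl1 held none. Among 32851 promoter entries of this length, 11.2% contained TGTGGT on either strand, 4.23% TGCGGT and 9.32% AGGTGT. These matches describe letters only, and their part in expression was not tested.

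Gzmb, which encodes granzyme B, an aspartate-directed protease that activates caspases, lies on chromosome 14 from 56877693 to 56881097 and was listed at 0 in 11 of the 12 libraries. The exception was cKO replicate 1, the deepest library, with 0.0358 FPKM. In wild-type and Bcl11bm/m libraries 3 fragments would have given 0.361 to 0.906 FPKM, so levels under about that value were not detectable there. A listed 0 can also be a failed estimate, since 5 genes other than short RNAs with a median above 20 FPKM were listed at 0 in some library. Beside the abundant Gzma, Gzmb was thus not detectable at this depth in Bcl11bm/m libraries and stayed under 3 estimated fragments in every cKO library.

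Ctsw, on chromosome 19 from 5465240 to 5468498, encodes cathepsin W, a cysteine protease found in NK cells and CD8+ T cells. Wild-type libraries had 1.54, 0.157, 0.487, 2.61 and 1.12 FPKM of it, Bcl11bm/m libraries 1.42, 0.707 and 1.38 FPKM and cKO libraries 1.88, 1.33, 8.85 and 0.572 FPKM. The groups overlapped in every pair, and replicate 3 of cKO stood highest. Differences were 0.09 for Bcl11bm/m against wild-type (95% interval -0.71 to 0.89), 0.66 for cKO against wild-type (-0.47 to 1.80) and -0.58 between the mutants (-1.92 to 0.77), with adjusted p of 0.901, 0.413 and 0.544 by limma. Without cKO replicate 3 the last 2 differences were 0.12 and -0.03.

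Nkg7, which encodes a membrane protein of cytotoxic granules, lies on chromosome 7 from 50692443 to 50693616. Wild-type libraries other than replicate 3 (0.411 FPKM) had it listed at 0, and it had 1.20, 0.398 and 0 FPKM in Bcl11bm/m and 2.60, 0.597, 1.21 and 0.121 FPKM in cKO libraries. Every wild-type and Bcl11bm/m value was below what 3 fragments would have given in the same library (0.906 to 2.27 FPKM), whereas 3 of the 4 deeper cKO libraries exceeded their own limit. Of these, cKO replicate 1 also exceeded the limit of every wild-type and Bcl11bm/m library, and replicate 3 the lowest of those limits. For lower values of this gene depth and genotype cannot be told apart. With no filter on low values its differences from wild-type were 0.44 in Bcl11bm/m and 0.86 in cKO (adjusted p = 0.357 and 0.131 by limma).

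Ccl5, on chromosome 11 from 83339280 to 83344020, encodes a chemokine (RANTES) secreted by activated cytotoxic lymphocytes. The libraries in order had 0.439, 1.98, 1.53, 0 and 0 FPKM (wild-type), 12.3, 2.22 and 2.16 FPKM (Bcl11bm/m) and 0.797, 0, 0.174 and 0.225 FPKM (cKO). Bcl11bm/m replicate 1 was far above the other libraries, and replicates 2 and 3 were just above the highest wild-type library. These levels rested on an estimated mean of 1.40, 5.69 and 3.48 fragments per library in wild-type, Bcl11bm/m and cKO. The difference of 1.67 between Bcl11bm/m and wild-type (95% interval 0.36 to 2.98) missed the threshold (adjusted p = 0.0846 by limma) and passed it in a single fit of the 3 groups (0.0354) and without short RNA features (0.0449). Without Bcl11bm/m replicate 1 it was 0.99 (adjusted p = 0.229 by limma). Its size also rested on the settings, at 3.16 with a pseudocount of 0.1 and 0.81 with library quality weights (adjusted p = 0.118 and 0.192 by limma). cKO differed from wild-type by -0.35 (95% interval -1.15 to 0.46, adjusted p = 0.554 by limma).

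Between the mutants Ccl5 was called higher in Bcl11bm/m by 2.02 (95% interval 0.82 to 3.22), with an adjusted p just under the threshold (0.0498 by limma). That call was lost without Bcl11bm/m replicate 2 (2.35, adjusted p = 0.0755 by limma) or 3 (2.37, 0.0808), without any cKO replicate (1.90 to 2.19, adjusted p = 0.0926, 0.103, 0.086 and 0.1 without replicates 1 to 4) and with no filter (0.0847), and the size rested on the pseudocount, with 3.75 at 0.1. Without Bcl11bm/m replicate 1 the difference was 1.33 (adjusted p = 0.033 by limma), in a fit that kept the same features, although without that library Ccl5 (mean 0.866 FPKM) would not pass the filter. Xcl1, on chromosome 1 from 166861775 to 166865658, encodes lymphotactin, a chemokine that attracts cross-presenting dendritic cells. Only Bcl11bm/m replicate 2 (0.812 FPKM) and cKO replicates 1 (0.510 FPKM) and 3 (0.191 FPKM) had a value for it above 0. Of these, only cKO replicate 1 exceeded the level that 3 fragments would have given, so Xcl1 was at the limit of detection in the other libraries.

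**Figure D2:**
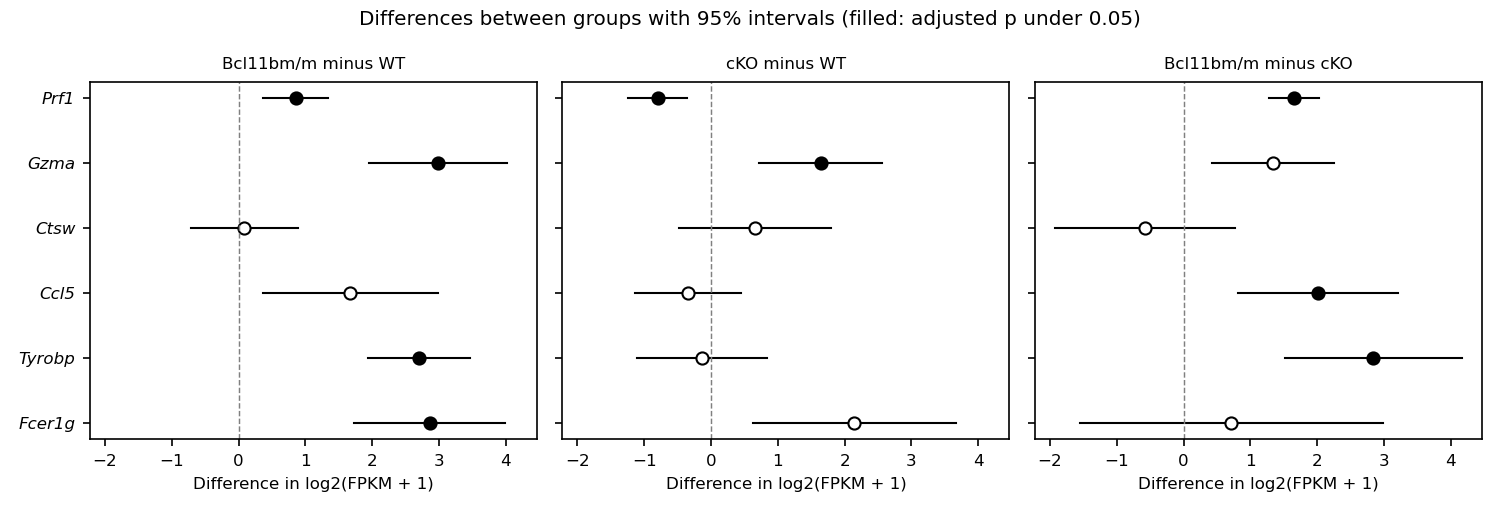
Difference in log2(FPKM + 1) between groups (points) with its 95% interval (lines) for the 6 members that passed the expression filter, for Bcl11bm/m minus wild-type, cKO minus wild-type and Bcl11bm/m minus cKO; filled points have an adjusted p under 0.05 by limma. Prf1 lies above 0 in the first panel (0.86) and below 0 in the second (-0.80), and Fcer1g has wide intervals wherever cKO enters.

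Tyrobp encodes DAP12, the adaptor through which activating NK receptors and several myeloid receptors signal, and lies on chromosome 7 from 31198807 to 31202596. Wild-type libraries had 0.397, 1.78, 2.07, 1.35 and 0.907 FPKM of it, Bcl11bm/m libraries 21.2, 13.4 and 8.47 FPKM and cKO libraries 0.960, 0.251, 4.55 and 0.203 FPKM. All Bcl11bm/m libraries were above all others, and among the cKO libraries only replicate 3 was above the wild-type range. An estimated mean of 2.37 fragments per library stood behind the wild-type values and 17.9 behind those of Bcl11bm/m, so the size of the rise depended on the pseudocount. Tyrobp rose by 2.71 in Bcl11bm/m relative to wild-type (95% interval 1.94 to 3.47, adjusted p = 0.0011 by limma), and by 3.44 with a pseudocount of 0.1. In cKO it differed from wild-type by -0.14 (95% interval -1.11 to 0.83, adjusted p = 0.862 by limma), by -0.63 without cKO replicate 3 and by 0.09 and 0.11 without replicates 2 and 4. The mutants differed from each other by 2.84, Bcl11bm/m being higher (95% interval 1.52 to 4.17, adjusted p = 0.0247 by limma).

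The rise of Tyrobp over wild-type held with each library left out, at 2.40 without Bcl11bm/m replicate 1 (adjusted p = 0.0044 by limma). The call between the mutants held only without cKO replicate 3 (3.33, adjusted p = 0.00487 by limma), and was lost without Bcl11bm/m replicate 1 (2.54, 0.0659), 2 (2.85, 0.0786) or 3 (3.15, 0.0588) or cKO replicate 1 (2.83, 0.076), 2 (2.62, 0.0561) or 4 (2.60, 0.0552). Its direction was the same throughout.

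Fcer1g, on chromosome 1 from 173159703 to 173164496, encodes the signalling chain shared by Fc receptors and by some NK receptors. Replicate by replicate, it had 0.632, 1.78, 2.76, 1.07 and 0.724 FPKM in wild-type, 40.2, 10.1 and 8.83 FPKM in Bcl11bm/m and 10.4, 1.20, 42.2 and 8.43 FPKM in cKO libraries. The Bcl11bm/m libraries were all above wild-type, and so were 3 of the 4 cKO libraries, replicate 2 lying within the wild-type range. No wild-type library exceeded the 2.73 to 4.72 FPKM that 3 fragments on the shortest transcript would have given. Fcer1g rose by 2.86 in Bcl11bm/m relative to wild-type (95% interval 1.73 to 3.99, adjusted p = 0.0057 by limma), and by 2.20 without Bcl11bm/m replicate 1 (adjusted p = 0.00642 by limma). The difference of 2.14 between cKO and wild-type (95% interval 0.62 to 3.67) missed the threshold (adjusted p = 0.0621 by limma). It passed without cKO replicate 2 (2.88, adjusted p = 0.00584 by limma), with library quality weights (1.87, 0.0405) and without short RNA features (0.0426), and it was 1.44 without replicate 3 (adjusted p = 0.129 by limma). Between the mutants Fcer1g differed by 0.72, with an interval from -1.56 to 2.99 (adjusted p = 0.664 by limma) that includes 0. It was 0.06 without Bcl11bm/m replicate 1 and turned to -0.015 without cKO replicate 2.

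Klrd1, on chromosome 6 from 129541800 to 129548793, encodes CD94, the partner chain of NKG2 receptors on NK cells. It was listed at 0 in all 5 wild-type libraries, at 0.552, 0.366 and 0 FPKM in Bcl11bm/m and at 1.18, 0.137, 5.49 and 0.111 FPKM in cKO libraries. In wild-type libraries 3 fragments would have given 1.30 to 2.25 FPKM, a level that only cKO replicate 3 exceeded, while cKO replicates 1 and 3 both exceeded the limits of their own deeper libraries (0.197 and 0.517 FPKM). With no filter its difference from wild-type was 0.36 in Bcl11bm/m and 1.04 in cKO (adjusted p = 0.133 and 0.233 by limma).

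Most members peaked in the same library in Bcl11bm/m, whereas in cKO the peaks were divided evenly between 2 libraries. Bcl11bm/m replicate 1 was the highest of its group for 7 of the 9 members with a value there (Gzma, Ccl5, Nkg7, Klrd1, Tyrobp, Fcer1g and Ctsw), and it was also the shallowest library. In cKO replicate 3 was highest for Gzma, Klrd1, Tyrobp, Fcer1g and Ctsw. Replicate 1, the deepest library, was highest for Prf1, Gzmb, Ccl5, Nkg7 and Xcl1, of which Gzmb, Nkg7 and Xcl1 stayed under the filter. Wild-type peaks fell in replicates 2, 3 and 4, for 3, 3 and 1 members.

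Transcripts of other cell types moved with some of these values. Of 24 myeloid markers 22 were listed, and their summed level was 16.4 to 33.1 FPKM in wild-type, 140.2, 52.4 and 33.9 FPKM by replicate in Bcl11bm/m and 8.10 to 14.7 FPKM in cKO libraries. Of 10 tested, C1qb and Mpeg1, genes of macrophages, were called higher in Bcl11bm/m (1.58 and 1.08), beside 9.92% of all features. Mpeg1 had a wild-type mean under 1 FPKM and was tested only through Bcl11bm/m. Among the 9 expressed in wild-type 1 was called higher. Itgam alone of the 10 was lower in Bcl11bm/m, without a call (-0.97, adjusted p = 0.14 by limma), at a mean of 0.653 FPKM against 2.6 FPKM in wild-type. Lyz2, C1qa, C1qb, C1qc and Mpeg1 were called lower in cKO thymocytes (-2.05, -1.33, -1.43, -1.54 and -0.62), where 14.5% of all features were called in either direction. The neutrophil genes S100a8, S100a9 and Elane were listed at 0 in all wild-type and Bcl11bm/m libraries. Tyrobp and Fcer1g, which myeloid cells also express, followed the order of the myeloid sum within Bcl11bm/m, and the part of such cells in their rise was not tested. In cKO the myeloid sum was below wild-type in every library while Fcer1g was above it in 3 of 4. Bcl11bm/m replicates 2 and 3 also had myeloid sums above every wild-type library, replicate 3 by little.

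The 18 NK cell markers summed to 0.129 to 1.20 FPKM in wild-type, 1.27, 7.68 and 5.82 FPKM in Bcl11bm/m and 6.20, 0.611, 25.8 and 2.32 FPKM in cKO libraries. Most of the highest sum was Klrb1c (NK1.1), at 21.8 FPKM in cKO replicate 3. Ncr1 (NKp46), a defining NK marker, was listed at 0 in every wild-type and cKO library and above 0 only in Bcl11bm/m replicate 2 (0.192 FPKM), and Klra4, Klra9 and Cma1 were at 0 in all libraries. Of the 18 markers 2 to 4 were above 0 in wild-type, 4 to 5 in Bcl11bm/m and 12, 4, 9 and 6 in cKO libraries 1 to 4, the deeper ones. In cKO replicate 3, Klri2 had 1.09 FPKM, Klrk1 0.789, Cd244 0.640, Klrc2 0.565 and Klrc1 0.237. In wild-type Klrk1, Klrc1 and Klrc2 were listed at 0 in every library, and Klri2 and Cd244 were at most 0.20 and 0.0454 FPKM. Bcl11bm/m replicate 1, which had the most Gzma, Tyrobp and Fcer1g of its group, had the lowest NK marker sum of that group. In cKO the library with the highest NK marker sum also had the most Gzma, Klrd1, Tyrobp and Fcer1g. The part of NK cells in these values was not tested.

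**Figure D3:**
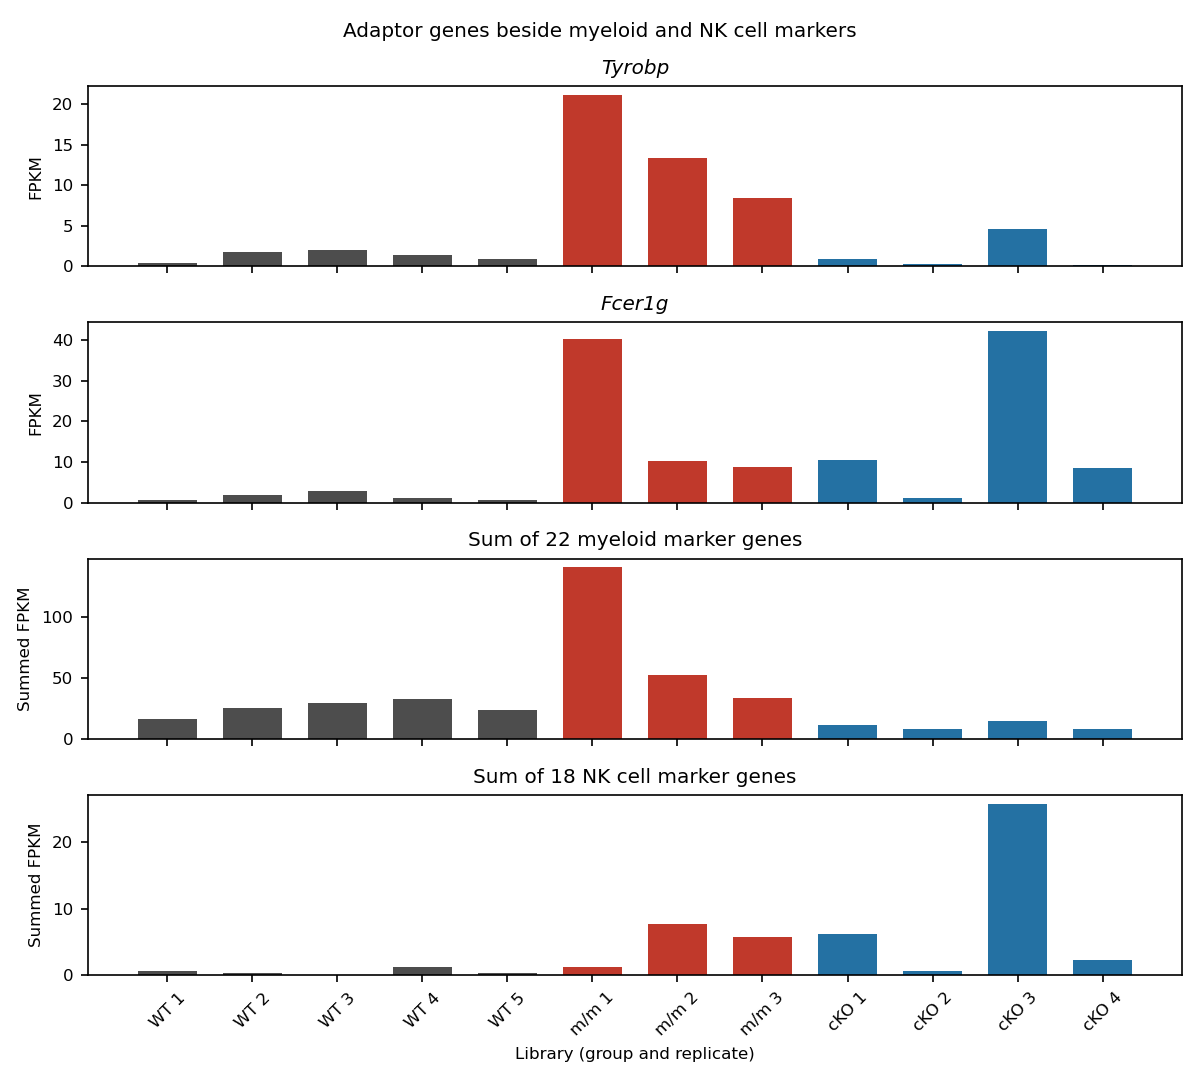
FPKM of Tyrobp and Fcer1g, and summed FPKM of 22 myeloid and 18 NK cell marker genes, in each library (bars; dark grey wild-type, red Bcl11bm/m, blue cKO). Bcl11bm/m replicate 1 is highest of its group for both adaptors and for the myeloid sum (140.2 FPKM), whereas cKO replicate 3 has 42.2 FPKM of Fcer1g beside a myeloid sum of 14.7 FPKM and an NK marker sum of 25.8 FPKM.

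Other lists gave further values beside these. Of 13 post-selection thymocyte markers 7 were called higher and 3 lower in Bcl11bm/m, led by Il7r (4.04), Itgb7 (3.45), Gimap4 (3.40), Klf2 (2.59) and H2-K1 (2.16). Those called lower were Nr4a1 (-1.94), Cd5 (-1.37) and Egr2 (-1.12), genes that T cell receptor signalling is known to induce. Il7r and S1pr1 had wild-type means under 1 FPKM and passed the filter only through the mutants. Of the 11 markers expressed in wild-type, 5 were higher in Bcl11bm/m and 3 in cKO, beside 9.92% and 4.65% of all features called higher. In cKO 5 of the 13 were higher, Il7r and S1pr1 among them, and Cd69 (-1.46) and Egr2 (-1.55) were lower. Their sum was 368 to 599 FPKM in wild-type, 678 to 1145 in Bcl11bm/m with replicate 1 highest, and 476 to 1002 in cKO with replicate 3 highest, the libraries in which Gzma and Fcer1g were also highest. Of 8 markers tested for innate-like T cells and innate lymphoid cells, 4 were higher and 1 lower in Bcl11bm/m and 3 were higher in cKO, among them 5830411N06Rik (6.03 and 2.79). All of those called higher had a wild-type mean under 1 FPKM and passed the filter through the mutants, so these counts are no support; among those expressed in wild-type, Il17re was lower in Bcl11bm/m (-1.62). Mast cell markers were listed at 0 for 7 of 10 genes in every library, including Mcpt4, Tpsb2, Ms4a2 and Fcer1a, while Kit, tested only through Bcl11bm/m, was called higher there (1.52). Cpa3, a mast cell protease, was listed at 0 in all wild-type libraries and had 0.292, 0.194 and 0.567 FPKM in Bcl11bm/m and 2.15, 0.0728, 1.96 and 0.589 FPKM in cKO libraries. It was thus highest in cKO replicates 1 and 3, which also had the most Fcer1g of that group. Hdc, which makes histamine, had 0.840, 1.11 and 1.84 FPKM in Bcl11bm/m and at most 0.461 FPKM in wild-type libraries. Dendritic cell markers summed to 262.7 to 332 FPKM in wild-type, 125 to 275 in Bcl11bm/m and 58.3 to 266 in cKO, sums made up mostly of Ccr9 in wild-type (251 to 303 FPKM). Ccr9 was called lower in both mutants (-1.75 and -1.43) and Flt3, tested only through Bcl11bm/m, higher there (2.26). Without Ccr9 the other 11 markers summed to 11.5 to 34.8 FPKM in wild-type, 209.8, 56.5 and 32.8 FPKM in Bcl11bm/m and 14.5 to 56.0 FPKM in cKO libraries, highest in the Bcl11bm/m library with the most Tyrobp and Fcer1g. Most of the sum in that library, replicate 1, was Cd74 (100.1 FPKM), H2-Ab1 (40.6), H2-Aa (38.8) and H2-Eb1 (20.7). Itgax was at most 1.2 FPKM in any library. Zbtb46 and Batf3 were listed at 0 in every wild-type and Bcl11bm/m library. B cell markers summed to 16.6 to 24.6, 12.4 to 39.8 and 15.9 to 41.3 FPKM in the 3 groups, highest in Bcl11bm/m replicate 1, where Cd79a had 10.7 FPKM, and in cKO replicate 1. Cd79a and Blk, with wild-type means under 1 FPKM and tested through the mutants, were called higher in cKO (1.02 and 1.65). The part of any of these cells in the members' values was not tested.

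Genes related to the members were taken from 5 lists of 103 genes, of which 102 were listed and 50 passed the filter, and in 41 of these the wild-type mean alone reached 1 FPKM. In Bcl11bm/m 23 of the 50 were called, 20 higher and 3 lower, and in cKO 10 were called, all higher and all also among the 23. These are 46% and 20% of the tested genes, beside 17.3% and 14.5% of all features. Of the 41 genes expressed in wild-type, 16 (39%) and 7 (17.1%) were called. The latter share is near the 14.5% of all features called in either direction. All calls in cKO were higher, however, where 4.65% of all features were called higher. In Bcl11bm/m 9.92% of all features were called higher. Between the mutants 5 of the 50 (10%) were called, a share like the 10.2% of all features.

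Of 13 tested genes of granule release and killing, 6 were higher in Bcl11bm/m and 2 in cKO. Over all features 9.92% and 4.65% were called higher in these groups. Serpinb9, which inhibits granzyme B, had 1.72 ± 0.535 FPKM (SD, n = 5) in wild-type and 7.11 ± 1.33 FPKM (SD, n = 3) in Bcl11bm/m, a rise of 1.58 (adjusted p = 9.69e-04 by limma). Serpinb6b, a serpin that inhibits granzyme A, rose by 2.04 in Bcl11bm/m and by 1.39 in cKO (adjusted p = 0.0023 and 0.0105 by limma). Rab27a, a GTPase that docks granules at the membrane, rose by 0.55 and 0.92 in these groups. Stxbp2 (Munc18-2, granule fusion), the death ligand Tnfsf10 (TRAIL) and Tnf rose by 0.78, 1.40 and 1.82 in Bcl11bm/m. The further granzymes Gzmc, Gzmd, Gzme, Gzmf, Gzmg, Gzmk and Gzmn and the cytokine Ifng were listed at 0 in every wild-type and Bcl11bm/m library. Of 4 chemokine and chemokine receptor genes tested, 2 were expressed in wild-type. Ccl9 alone was called, higher by 0.52 in Bcl11bm/m, beside 9.92% of all features called higher.

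Among 31 NK receptor genes 5 were expressed enough to be tested, and 4 rose in Bcl11bm/m. Those 4 had wild-type means under 1 FPKM and passed the filter only through the mutants, so their number is no support, and the one expressed in wild-type, Cd226, differed by -0.03 in Bcl11bm/m (adjusted p = 0.929 by limma). Cd160, a receptor of NK and CD8+ T cells, rose most, from 0.271 ± 0.133 FPKM (SD, n = 5) in wild-type to 18.9 ± 6.04 FPKM (SD, n = 3) for Bcl11bm/m and 23.6 ± 13.1 FPKM (SD, n = 4) in cKO, differences of 3.93 and 4.05 (adjusted p = 1.21e-05 and 0.0013 by limma). Cd7, Klrb1c and Fcgr3 rose in Bcl11bm/m by 1.60, 1.83 and 1.08, Klrb1c close to the threshold (adjusted p = 0.0494 by limma) and with 0.301 FPKM in Bcl11bm/m replicate 1 inside the wild-type range. With a pseudocount of 0.1 these differences were 3.56, 3.79 and 2.68. The calls were lost in a single fit of the 3 groups (adjusted p = 0.144, 0.122 and 0.16 by limma), that of Klrb1c also with no filter (0.0999), and that of Fcgr3 with no filter (0.0567) and quantile normalization (0.0529). The Klr and Klra genes are similar in sequence, so their values are uncertain where reads were shared between them. Of 15 adaptor and proximal signalling genes tested, 2 were called higher and 2 lower in Bcl11bm/m and 1 higher in cKO. The shares called higher over all features were 9.92% and 4.65%. Among the 14 expressed in wild-type 1 was higher in each mutant, a count near these shares. Syk and Plcg2, which act downstream of Tyrobp and Fcer1g, rose in Bcl11bm/m by 1.04 and 1.39 (Plcg2, with a wild-type mean under 1 FPKM and tested through the mutants, by 2.17 with a pseudocount of 0.1), and Syk rose in cKO by 0.59. Cd3e and Lat of the T cell receptor pathway fell in Bcl11bm/m by 0.83 and 0.75 (adjusted p = 0.027 and 0.0369 by limma).

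Transcription factors and cytokine receptors of cytotoxic lymphocytes gave the most calls, with 7 of 13 tested genes higher and 1 lower in Bcl11bm/m and 6 higher in cKO. Of the 11 expressed in wild-type, 5 were higher and 1 lower in Bcl11bm/m and 4 were higher in cKO. Over all features 9.92% were called higher in Bcl11bm/m and 4.65% in cKO. Runx3, a factor of CD8+ T and NK cells, had 4.14 ± 1.80 FPKM (SD, n = 5) in wild-type, 16.3 ± 2.03 FPKM (SD, n = 3) for Bcl11bm/m and 21.8 ± 10.1 FPKM (SD, n = 4) in cKO, rises of 1.82 and 2.11 (adjusted p = 0.00437 and 0.00581 by limma). Id2, an inhibitor of E proteins that NK cells require, rose by 2.73 and 2.96 (adjusted p = 6.61e-05 and 0.00442 by limma). The receptor genes for interleukins 12 and 18, cytokines that activate NK cells, rose in both mutants, namely Il12rb2 by 3.04 and 3.12, Il12rb1 by 1.44 and 1.15, Il18r1 by 2.37 and 2.26 and Il18rap by 1.25 and 2.08. The last pair, under 1 FPKM in wild-type, passed the filter only through the mutants, so their calls are no support. Their differences also depended on the pseudocount in size, with 4.03 and 3.87 for Il18r1 and 3.77 and 4.77 for Il18rap at 0.1. The call of Il18rap in Bcl11bm/m was lost in a single fit of the 3 groups (adjusted p = 0.0715 by limma). Il15ra rose by 1.80 and Il21r fell by 1.41 in Bcl11bm/m. Tbx21 and Eomes, the T-box factors of cytotoxic lymphocytes, were at most 0.415 and 0.307 FPKM in any library and were not tested.

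Between the mutants Tnfsf10 (1.43), Ccl9 (0.75), Stxbp2 (0.45) and Syk (0.45) were higher in Bcl11bm/m and Cd3e (-0.46) was lower, and with single libraries left out only the call of Tnfsf10 held throughout. With single libraries left out, all 10 related genes called in cKO and 17 of the 23 called in Bcl11bm/m remained called. Among those that remained, Cd160, Il18r1 and Il18rap in both mutants and Cd7 and Plcg2 in Bcl11bm/m had wild-type means under 1 FPKM. They passed the filter only through the mutants, so their calls are no support. Those that did not remain in Bcl11bm/m were Rab27a, lost without Bcl11bm/m replicate 1 (0.43, adjusted p = 0.0648 by limma) or 2 (0.59, 0.0506), and Ccl9, Klrb1c, Fcgr3, Cd3e and Lat, each lost without several libraries (adjusted p up to 0.0860, 0.187, 0.0608, 0.0998 and 0.128 by limma). Ccl9 was also lost with quantile normalization (0.16), and Lat with that (0.0514) and with no filter (0.0564). Between the mutants, Syk and Cd3e were lost with no filter (0.0543 and 0.0536) and in other settings.

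**Figure D4:**
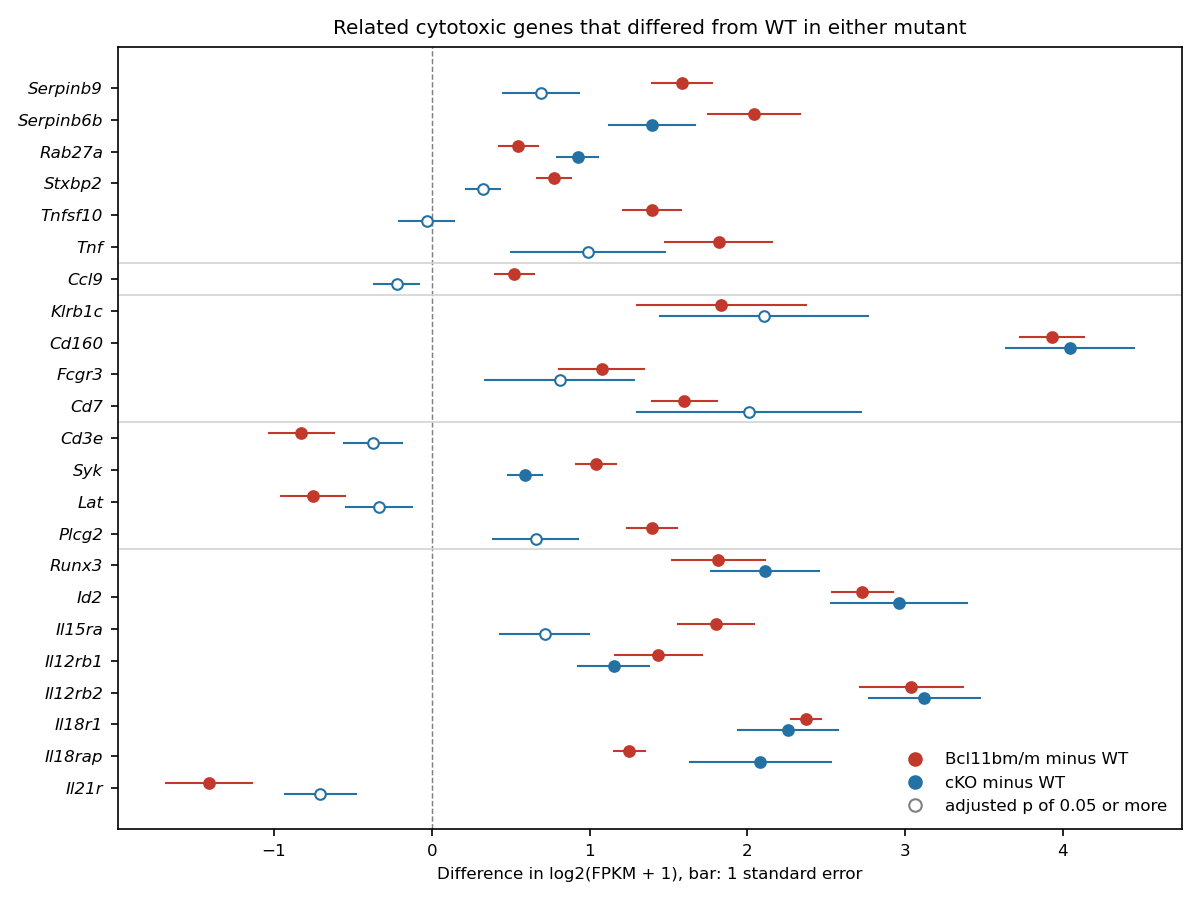
Difference in log2(FPKM + 1) from wild-type (points) with 1 standard error (lines) for the related genes called in either mutant, red for Bcl11bm/m and blue for cKO, open where the adjusted p was 0.05 or more; grey lines separate the 5 lists (granules and killing, chemokines, NK receptors, adaptors and signalling, transcription factors and cytokine receptors). Cd160 is farthest to the right in both mutants (3.93 and 4.05), and Cd3e, Lat and Il21r lie left of 0.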

How the data were processed

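FPKM values of 12 libraries were analysed. The authors mapped reads with TopHat2 and calculated FPKM with Cufflinks (version 2.1.1 in the submitters' processing notes, which name the build mm9) and the iGenome gene annotation. No further scaling was described in the sources used here, and each column matched 1 sample title. GENCODE on NCBIM37 gave positions, and RefSeq on GRCm38.p6 gave promoters.

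Differences were computed on log2(FPKM + 1), which understates those of low genes. The filter kept 10780 features. For each pair of groups a separate model was fitted with limma 3.58.1 (lmFit, eBayes with trend=TRUE) under R 4.3.3. Tests were two-sided at a threshold of 0.05 after Benjamini-Hochberg adjustment over the features kept. Intervals are 95% intervals of that model. The code was tested on simulated data. Python 3.11.15, pandas 2.3.3, numpy 2.4.6 and matplotlib 3.10.9 made the tables and figures.

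Depth was inferred, because the table holds no counts: with 1 annotated transcript, 66.2 to 72.1% of low values fell within 0.1 of a whole multiple of a step (an even spread gives 20%). The level of 3 fragments covers counting error only.

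The text names all 10 members, Bcl11b, related genes called in any comparison, and, with the exceptions below, at most 5 called genes from each marker list. S1pr1 is named beyond that number. Rag1, Rag2, Dntt, Ptcra, Cd4 and Cd8a are named as examples of their list, whether called or not. Nr4a1, Cd5, Egr2, Cd69, Cpa3, Hdc, Klri2, Klrk1, Klrc1, Klrc2, Cd244, Cd226, Ncr1, Tbx21, Eomes, Itgam, Itgax, Cd74, H2-Aa, H2-Ab1, H2-Eb1 and genes at 0 were added once their values were known. Members and lists were chosen with earlier results of these data known. Alternative settings comprised another pseudocount (0.1), no filter or a stricter one (mean of 5 FPKM), median-ratio or quantile scaling, all groups in a single model, a replicate block, quality weights, removal of short RNAs, and omission of each library. The study's ChIP-seq and ATAC-seq were not used here.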

Additional observations from a re-analysis of the deposited data

Results flagged for a closer look

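5 values stood out by fixed rules. Gzmb was 0.0358 FPKM in cKO replicate 1 and listed at 0 in the other 3 libraries of that group. Nkg7 was 0.411 FPKM in wild-type replicate 3 and listed at 0 in the other 4. Each is the one library of its group above 0, which Dixon's criterion picks out whatever the value, so these are descriptions only. It found these 2 of 17 groups, and both values are under the level of 3 fragments. For Prf1, Ccl5 and Tyrobp the change from wild-type differed between the mutants in the direct comparison, by 1.65, 2.02 and 2.84 on the log2(FPKM + 1) scale (adjusted p = 0.00232, 0.0498 and 0.0247 by limma), with Bcl11bm/m higher and no overlap of the libraries in each case. Ccl5 was tested only because Bcl11bm/m replicate 1 lifted its mean over the filter (0.866 FPKM without that library).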

How the results depend on the processing

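Depth limited the low members most, since Gzmb, Nkg7, Klrd1 and Xcl1 stayed under 3 estimated fragments in every wild-type and Bcl11bm/m library. In Bcl11bm/m against wild-type, 1866 features and 4 members were called by limma. A mean of at least 5 FPKM gave 1189 and 2, a filter only Gzma and Fcer1g pass, library quality weights gave 3604 features, and leaving out single libraries gave 1021 to 2349 features and 3 to 4 members. In cKO against wild-type, 1564 features and 2 members were called. There no filter and a mean of at least 5 FPKM left 1 member each, quality weights gave 3176 features, and leaving out single libraries gave 700 to 2678 features and 0 to 3 members. Without replicates 1, 3 or 4 of cKO no member was called, while 3 had an unadjusted p under 0.05 in each case. Between the mutants, 1102 features and 3 members were called. A mean of at least 5 FPKM gave 656 and 0 (1 of 2 members at an unadjusted p under 0.05), quality weights gave 2173 features, and single libraries left out gave 313 to 1121 features and 1 to 2 members. 3 small differences changed sign. Ctsw, HM against WT (Bcl11bm/m against wild-type), was -0.086 with quantile normalization and -0.11 to 0.30 without single libraries. Tyrobp, cKO against WT, was -0.63 to 0.11 without single libraries, positive without cKO replicate 2 (0.089) or 4 (0.11). Fcer1g, HM against cKO (Bcl11bm/m against cKO), was -0.015 to 1.42 without single libraries, negative without cKO replicate 2. The cause was not tested.

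With a replicate block, 283, 456 and 30 features and 0, 0 and 0 members were called by limma in the 3 comparisons (4, 3 and 4 members at an unadjusted p under 0.05). The same-numbered libraries did not deviate together (correlations -0.211 to 0.152), so they share only a number. Aside from the block and from leaving out libraries, 17, 10 and 3 of the 23, 10 and 5 called related genes kept their call in every setting that tested them. Among them, Plcg2 in Bcl11bm/m, Il18rap in cKO, and Cd160 and Il18r1 in both passed the filter only through the mutants and are no support. The block itself removed most calls of related genes in Bcl11bm/m and every call between the mutants. With the block included, only Cd160, Id2 and Il18r1 kept their call in every setting in Bcl11bm/m. Of these, Cd160 and Il18r1 had wild-type means under 1 FPKM and passed the filter only through the mutants, so their calls are no support. In cKO the block removed the calls of Serpinb6b, Il12rb1 and Il18rap.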
